A study of Mus musculus with 2 samples.

Results

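The cytosolic ribosomal protein genes were followed in single-cell transcriptomes of mouse corneal epithelium. Members were the rows of the count table named Rpl or Rps with a number, together with Rpsa, Rplp0, Rplp1 and Rplp2, and rows of pseudogenes were left out. The rule found 81 of 17891 genes, 49 named for the large subunit and 32 for the small one. The donors were 7 males of the mouse strain C57BL/6J, aged 10 weeks, that had lost the extraorbital and intraorbital lacrimal glands of the right side 9 days earlier. The control library pooled epithelium of 7 left eyes and the dry eye library that of 6 right eyes, so the same mice gave both and left or right cannot be told apart from treatment. With 1 pooled library per group there is no replicate check, and each difference is between these 2 libraries.

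Each ribosome joins a small subunit, which reads the mRNA, to a large one, which forms the peptide bond, and every subunit needs its proteins in fixed proportion. Their mRNAs are among the most abundant in growing cells. Many begin with a run of pyrimidines at the first transcribed base (a 5′ terminal oligopyrimidine tract, or TOP), through which mTORC1 signalling sets how well they are translated. In a stratified epithelium such as that of the cornea, dividing cells lie at the base and the limbus, and their daughters flatten and are shed at the surface.

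Captured mRNA molecules were counted by unique molecular identifiers (UMIs): 191493194 in 17465 control cells and 207030777 in 16420 dry eye cells. The median mitochondrial share of a cell was 1.76% and 1.74%, and 74 cell barcodes occurred in both libraries. Krt12, the defining keratin of corneal epithelium, stood at 21648 and 19318 CPM (UMIs scaled to a total of 1000000), and at 3947 CPM or more in every class compared. Summed immune markers reached 7.35 and 6.87 CPM, with Lyz2 and Cd3e at 0 in control. Values are split by 13 classes of the authors' annotation, whose names are used as deposited, with the asterisk that 5 of them carry. Summed markers differed between these classes. The 5 S phase markers summed to 595 CPM in TAC1 and 67.4 CPM in Basal of control, the 5 mitosis markers to 3712 CPM in TAC2 and 155 CPM in Basal, and the 5 wing and squamous markers to 6577 CPM in Wing, 14077 CPM in Squam and 544 CPM in Basal. The 4 limbal markers reached 11250 CPM in LSC of control but 15996 CPM in Conj, so they do not set these 2 classes apart.

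Sequences around the transcription start are shown for 8 members on which the results below turn, because the start is where TOP mRNAs are recognised. RefSeq starts on GRCm38.p6, the mm10 build, were found for 61 of the 81 members, 72 starts in all. Each line runs 5′ to 3′ on the transcribed strand, with 60 bases before the start and 20 from it onward. Capitals mark the longest run of C or T that overlaps the 10 bases on either side of the start.
Rpl38 (chr11:114668520-114668599, plus strand): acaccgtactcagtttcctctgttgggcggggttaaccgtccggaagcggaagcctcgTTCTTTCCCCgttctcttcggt
Rps24 (chr14:24490618-24490697, plus strand): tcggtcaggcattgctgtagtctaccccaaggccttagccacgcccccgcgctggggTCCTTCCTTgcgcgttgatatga
Rps27 (chr3:90213629-90213708, minus strand): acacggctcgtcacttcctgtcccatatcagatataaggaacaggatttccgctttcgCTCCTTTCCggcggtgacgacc
Rps27l (chr9:66946026-66946105, plus strand): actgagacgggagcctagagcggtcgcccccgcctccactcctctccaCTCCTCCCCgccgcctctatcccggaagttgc
Rpl22l1 (chr3:28805448-28805527, plus strand): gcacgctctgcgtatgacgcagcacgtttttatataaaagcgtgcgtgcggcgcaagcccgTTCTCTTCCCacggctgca
Rpl12 (chr2:32961652-32961731, plus strand): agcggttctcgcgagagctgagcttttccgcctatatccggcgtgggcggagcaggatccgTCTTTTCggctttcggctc
Rplp0 (chr5:115559407-115559486, plus strand): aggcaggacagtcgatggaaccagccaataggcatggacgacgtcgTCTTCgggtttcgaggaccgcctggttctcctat
Rpl41 (chr10:128549149-128549228, minus strand): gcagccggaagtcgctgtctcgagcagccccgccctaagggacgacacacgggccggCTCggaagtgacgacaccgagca

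A run of at least 8 C or T letters overlapped that window at 30 of the 72 member starts (41.7%), against 13.7% of all 32851 RefSeq starts. The starts shown of the paralogs Rpl22l1 and Rps27l carried such a run, as did those of Rpl38, Rps24 and Rps27, and those of Rpl12, Rplp0 and Rpl41 did not. Rps27l and Rps24 each have a second RefSeq start, with longest runs of 4 and 2 letters. On the transcribed strand, from 10 bases before to 15 after the start, TTTCC stood at 20.8% of member starts and 3.59% of all, and CTTTC, which overlaps it by all but 1 letter, at 20.8% and 3.1%. Over the whole 300 bases and both strands, CCGGAAG, the core bound by ETS factors, was found at 37.5% of member starts and 8.86% of all. TATAAA, the TATA box, was found at 9.72% and 13.6%. These are matches of letters in annotated windows and not measured start sites.

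Ribosomal protein mRNAs made up 20.6% of all UMIs in control (exact 95% interval 20.63 to 20.64, counting error only) and 21.3% in dry eye (21.32 to 21.33), a ratio of 1.03. Single cells spread far wider than the libraries. The median cell gave 24% of its UMIs to the 81 genes in control and 25.1% in dry eye, with the middle 90% of cells between 4.54 and 38.2% and between 4.6 and 38.4%. Averaged over cells with equal weight, the share was 22.2% in control and 22.4% in dry eye.

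The share differed far more between layers than between the libraries. In control it was 33.9% in Basal cells, 20.3% in Wing cells and 6.43% in Squam cells, and in dry eye 34.2, 20.7 and 7.19%. Squam cells thus had 0.19 times the Basal share in control and 0.21 times in dry eye, and Wing cells 0.598 and 0.605 times. The LSC class and the classes with most S phase and mitosis markers lay near Basal: LSC at 32.8 and 35.8%, TAC1 at 35.5 and 34.8%, and TAC2 at 30.4 and 30.02%. Conj cells lay between Wing and Squam, at 14.4 and 15.1%. The same counts may have served to define the classes, so differences between classes are given as a description.

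Fewer ribosomal protein UMIs per cell, and not only more of other mRNAs, accompanied the low share of Squam cells. A Squam cell had on average 729 ribosomal protein UMIs in control and 840 in dry eye, against 2158 and 2367 in a Basal cell. Its other UMIs numbered 10593 and 10850, against 4211 and 4547 in Basal. Wing cells had the most ribosomal protein UMIs of the 3 layers, 3022 and 3832 per cell, beside 11901 and 14684 others. The classes therefore differed in depth, but among cells with 5000 to 15000 UMIs the shares were still 34.8% in Basal of both libraries, 21.1 and 20.8% in Wing, and 6.16 and 6.84% in Squam. Within classes the share also moved with depth. From the 25% of cells with the fewest UMIs to the 25% with the most, it went in control from 29.1 to 35.6% in Basal, from 5.76 to 6.88% in Squam and from 26.9 to 32.9% in LSC, and in dry eye from 31.4 to 35.2%, from 5.81 to 7.69% and from 33.2 to 35.1%. In Wing it went from 21.2 to 19.8% in control and from 20.5 to 21.1% in dry eye.

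**Figure D1:**
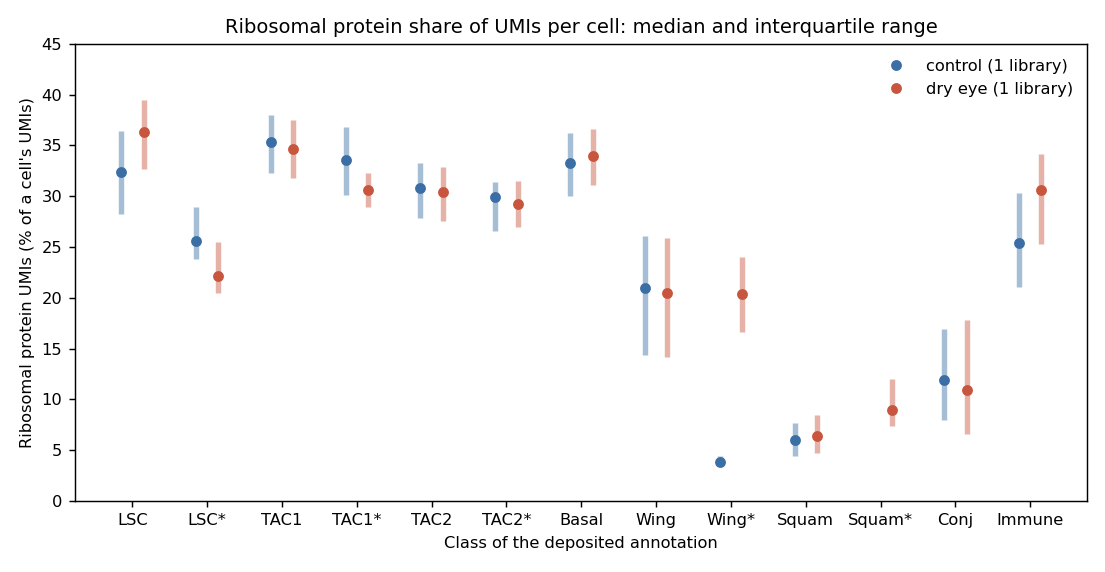
Share of a cell's UMIs on the 81 ribosomal protein genes (vertical axis, percent) for each class and library. Points are medians over cells and bars the interquartile range; Basal and Squam stand far apart in both libraries, while the 2 libraries differ little within most classes.

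Within the 8 classes of at least 100 cells in each library, the share was higher in dry eye in 5 and lower in 3. The LSC class went from 32.8 to 35.8% (ratio 1.09), and Squam from 6.43 to 7.19% (ratio 1.12). Conj had a ratio of 1.05, Wing 1.02 and Basal 1.01, but these 3 are not steady in direction: among cells with 5000 to 15000 UMIs they were 0.961, 0.986 and 0.997. TAC1* was lower, from 33.2 to 30.6% (ratio 0.92), and TAC1 and TAC2 had ratios of 0.978 and 0.989. In LSC the UMIs per cell moved with the share: ribosomal protein UMIs went from 1845 to 2578 per cell and other UMIs from 3785 to 4633. The part of depth in the LSC value was not tested, but among LSC cells with 5000 to 15000 UMIs the shares were 33.8 and 37.5%.

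Over all cells, 80 of the 81 members passed the expression filter (at least 100 UMIs in the 2 libraries together, and 20 CPM or more in 1 of them). A gene was called where its CPM in one library was at least 25% above that in the other and the exact interval of the ratio left out 1. By this rule 1 of 80 members was higher in dry eye, Rpl41, where 6.89% of the 4775 genes that passed were. No member was lower, against 9.82% of genes. At 1.1-fold, 11 members were higher (17.3% of all genes) and 0 lower (32.9%), and at 1.5-fold 0 were higher (2.81%) and 0 lower (1.4%). The median log2 ratio of the members was 0.04, beside -0.05 for all genes, and their middle 50% ran from -0.01 to 0.10, beside -0.19 to 0.08 for all genes. Of the 80, 55 had a ratio above 1 and 25 below, that is 68.8% above 1 beside 38.7% of all genes. This split depends on the scaling, since with TMM factors it was 76 and 4 (95% above 1, beside 51.9% of all genes), with 3 members called higher. The 90 other genes with UMIs at or above the 5th percentile of the members had the middle 90% of their log2 ratios between -0.37 and 0.74, beside -0.06 and 0.19 for the members.

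Of the members above 1, Rpl41 had the highest ratio. It encodes the smallest ribosomal protein, with a coding sequence of 75 nucleotides, in a gene at chr10:128548114-128549305 (GENCODE, mm10). Its level was 4226 CPM in control and 5360 CPM in dry eye, 1.27-fold higher (1.26 to 1.27), and it went from rank 8 to rank 4 among members. The call was lost without the starred classes (ratio 1.23), as a mean over cells (1.24) and when each class of dry eye was given its weight among control cells, with the direction kept in all 11 other settings. None of these settings added copies whose names lack -ps, and the part of such copies in the Rpl41 call was not tested. Rpl38, which is known for its role in translating Hox mRNAs and axial patterning, stood at 1663 and 2021 CPM (ratio 1.22, 1.21 to 1.22). Rps2, at the mRNA entry channel of the small subunit, stood at 2764 and 3325 CPM (ratio 1.2, 1.2 to 1.21), and Rps28, near the mRNA exit, at 2301 and 2680 CPM (ratio 1.16). Rpl37 and Rpl6, both of the large subunit, had ratios of 1.14 and 1.13. All 6 kept their direction in every other setting tried.

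At the other end the differences were smaller than 1.1-fold. Rpl21 stood at 2873 CPM in control and 2672 CPM in dry eye (ratio 0.930, 0.926 to 0.933), and Rpl7 at 2019 and 1900 CPM (ratio 0.941, 0.937 to 0.945). Rps4x, the X-linked small subunit protein, had a ratio of 0.95 and Rpl23 one of 0.955. Rpl9, at 0.960, reached 1 with TMM factors, so its direction depends on the scaling. The 5 members with most UMIs were Rpl13, Rps24, Rpl39, Rpl41 and Rpl23. Rpl13 was level at 6917 and 6981 CPM and Rps24 at 5877 and 5782 CPM, both with a direction that turned in some settings, while Rpl39, which lines the exit tunnel, stood at 4792 and 5391 CPM (ratio 1.12).

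**Figure D2:**
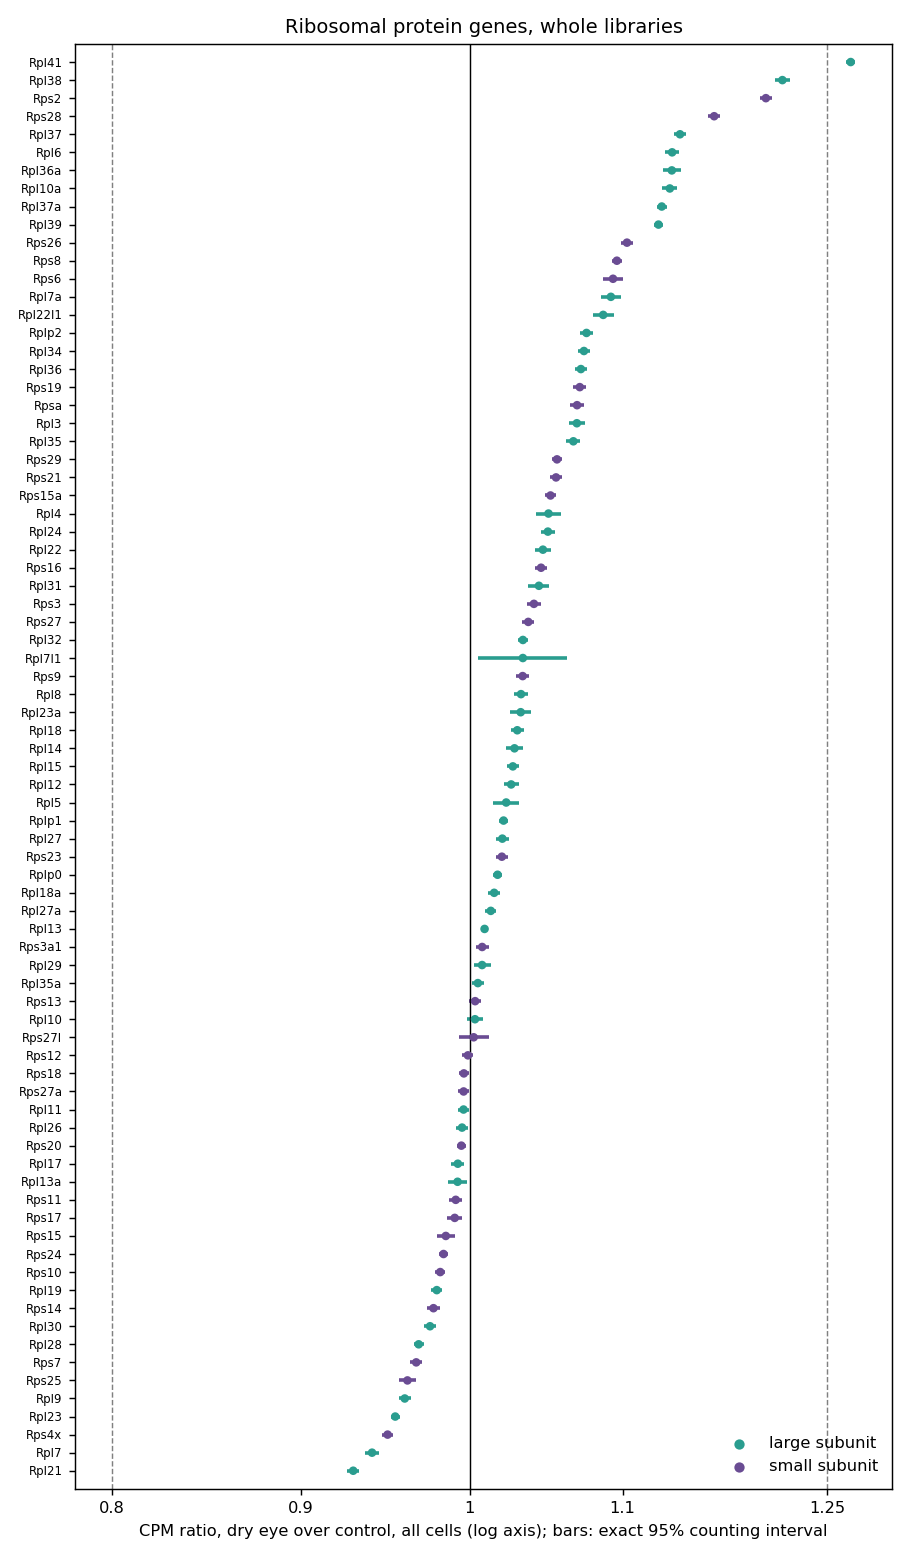
Ratio of CPM in dry eye over control for 79 of the 80 members that passed the filter (log axis), with large and small subunit members in different colours and bars for the exact 95% counting interval; dashed lines mark 25% above in either direction. Rpl41, at 1.27, is the only one shown past a dashed line, and Rpl21, at 0.930, is the lowest.

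Further members are known for particular roles. Rpl5 and Rpl11, which bind and restrain Mdm2 when ribosome assembly fails, had ratios of 1.02 and 0.996. Rps6, the substrate of the S6 kinases, had a ratio of 1.09, and Rpl10a, a large subunit protein of the L1 stalk, one of 1.13. Of the stalk that recruits elongation factors, Rplp0 had a ratio of 1.02, Rplp1 1.02 and Rplp2 1.08. Rpsa, also named the laminin receptor, and Rpl3, at the peptidyl transferase centre, both had 1.07. Rps27a, made as a fusion with ubiquitin, had 0.996, and Fau, a fusion gene that the naming rule leaves out, had 0.979. Rpl5, Rpl11, Rplp0, Rplp1 and Rps27a changed direction in at least 1 setting, so no direction is given for them.

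Most of the higher ratios were those of short members. The 20 shortest members (75 to 366 nucleotides) had a median ratio of 1.07 and held 8 of the 11 members past 1.1-fold. The next 20 (369 to 453 nucleotides) had a median of 1.01 and the third 20 (456 to 612) one of 0.996, with 0 past 1.1-fold in either. The 20 longest (624 to 1257) had a median of 1.04 and held the other 3. Over the 80 members the correlation of the log2 ratio with log2 coding length was -0.34, a description over genes that share both libraries. Members with and without a pyrimidine run that overlapped the window around the start were alike in this ratio. The 29 with a run of at least 8 and the 31 without one had the same median ratio, 1.03, with ranges of 0.962 to 1.22 and 0.95 to 1.27. Such a run need not hold the transcribed base at the start, and those of Rps25, Rpl31, Rps15a and Rps27l ended before it. The split therefore does not separate TOP mRNAs from others, and a difference between these was not tested.

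Within single classes, CPM was set against the class total and the same rule was used. In TAC1, TAC2, Basal, Wing and Conj, 0 of 80 members were called in either direction, where the share of all genes called higher was 4.08, 4.45, 2.28, 5.05 and 2.21% and lower 4.1, 7.7, 3.54, 10.4 and 1.92%. In LSC 1 was higher, Rpl41 at 1.38 (4.72% of genes higher, 12.8% lower). In TAC1* 2 were higher and 6 lower (22.2% and 19.8% of genes). In Squam 13 were higher and 1 lower (8.03% and 23.5% of genes). The share of members called higher in Squam, 16.2%, was thus above that of all genes in the same class, and the share called lower below it. The counting interval of a member's ratio had a median half-width from 0.654% of the ratio in Wing to 2.88% in TAC1*, and at most 7.62% in any of the 8 classes, apart from Rpl7l1, which reached 24% in LSC.

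Rpl41, Rpl38 and Rpl37 had ratios with intervals above 1 in all 8 classes. They were 3 of 39 such genes among the 2734 that passed in every class (1.43%), and 0 members were below 1 in all 8, as 78 genes were (2.85%). Rpl41 ran from 2016 CPM in Squam to 6584 CPM in TAC1 in control, and from 2476 to 7827 CPM in the same classes of dry eye. Its ratio was lowest in TAC1, at 1.19, and highest in LSC, at 1.38. Rpl38 had ratios from 1.12 in TAC1 to 1.35 in Squam, and Rpl37 from 1.03 in TAC1* to 1.24 in LSC.

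The makeup of the pool, meaning each member's share of all ribosomal protein UMIs, does not move with the total. By this measure 8 members had a larger share in dry eye with an interval above 1 in all 8 classes. They were Rpl41, Rpl38, Rpl34, Rpl6, Rpl10a, Rps26, Rps28 and Rps29. Another 11 had a smaller share with an interval below 1 in all 8. Shares add up to the whole pool, so a larger share of some members lowers that of others. By CPM, 0 members were below 1 in all 8. The pool holds only members, so no count over all genes stands beside these. Among the 11 with a smaller share were Rpl7, Rpl9, Rpl19, Rpl21, Rpl23, Rpl26, Rpl30, Rps10, Rps14 and Rps25. For Rpl41 the share was 2.05% of the pool in control and 2.51% in dry eye over all cells, and for Rps28 1.12 and 1.26%. Most such shifts were small. For Rpl38 the ratio of shares was lowest in LSC, at 1.13, and for Rpl7 it ran from 0.884 in LSC to 0.922 in TAC1*.

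The 13 members higher in Squam of dry eye were led by Rpl22l1, from 251 to 379 CPM (ratio 1.51, 1.47 to 1.55). Next came Rpl39, from 1287 to 1862 CPM (1.45), Rps28, from 635 to 900 CPM (1.42), and Rps12, from 790 to 1112 CPM (1.41). Rpl36a and Rpl12 both had a ratio of 1.39, Rplp2 1.37, Rpl38 1.35, Rps19 1.32, Rpl35 and Rpl37a 1.29, and Rps20 and Rps24 1.26. The 1 lower member was Rps27l, from 182 to 140 CPM (ratio 0.771, 0.742 to 0.8). Rps2, among the highest over all cells, was level in Squam, at 592 and 590 CPM. These Squam values moved with the total: the ribosomal protein share of Squam was itself 1.12-fold higher, and as a share of the pool Rpl22l1 was 1.35-fold higher and Rps24 1.13-fold. The 5 conjunctival markers in Squam summed to 7653 CPM in control and 10712 CPM in dry eye, and the 4 corneal ones to 18775 and 24157 CPM. Their part in the Squam values was not tested.

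TAC1* differed from Squam in which members stood out. Rpl22l1 was lower there, from 1217 to 794 CPM (ratio 0.652, 0.617 to 0.689), as were Rps4x (0.771), Rps7 (0.784), Rps24 (0.786), Rpl23 (0.787) and Rpl21 (0.799). Higher were Rpl41, from 6075 to 7720 CPM (1.27), and Rps27l, from 603 to 761 CPM (1.26, 1.17 to 1.36). The total share was 0.92 times that of control in this class, which had 133 control and 473 dry eye cells, the fewest control cells of the 8. Corneal markers in TAC1* summed to 37421 CPM in control and 23437 CPM in dry eye, and limbal markers to 334 and 1248 CPM, and their part in these values was not tested.

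**Figure D3:**
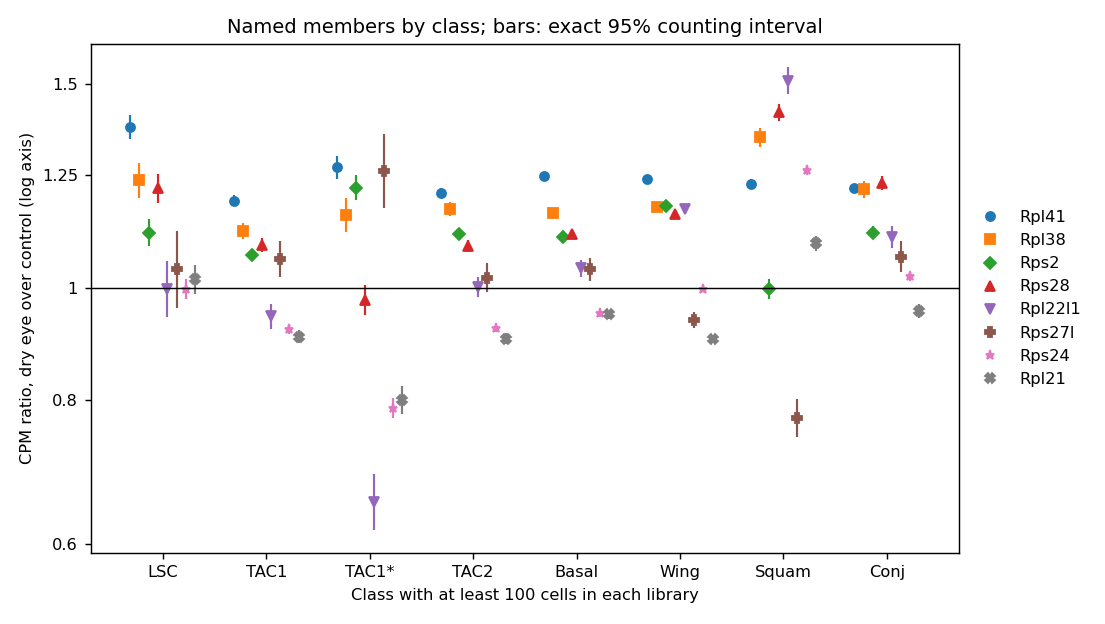
Ratio of CPM in dry eye over control (log axis) for 8 named members in each class with at least 100 cells per library; bars are exact 95% counting intervals. Rpl41 and Rpl38 lie above 1 in every class, while Rpl22l1 runs from 0.652 in TAC1* to 1.51 in Squam and Rps27l from 0.771 in Squam to 1.26 in TAC1*.

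All 80 members that passed were at least 2-fold lower in CPM in Squam than in Basal, in both libraries, where 39.2% of genes in control and 44.6% in dry eye were. The size differed between members. In control the Squam over Basal ratio ran from 0.0763 for Rpl12 to 0.408 for Rplp0, and in dry eye from 0.107 to 0.427 for the same genes. In Wing against Basal, 2 members were 2-fold lower in control (7.46% of genes), Rpl12 and Rpl36a, and 1 in dry eye (9.53%), Rpl12.

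Rplp0 and Rpl23a had the highest ratios of Squam over Basal. Rplp0, which anchors the stalk, stood at 5806 CPM in Basal and 2367 CPM in Squam of control, and at 5844 and 2497 CPM in dry eye. Its share of the pool was 1.71% in Basal and 3.68% in Squam of control, 2.15 times higher, and in dry eye 1.71 and 3.47%. Rpl23a, near the exit of the peptide tunnel, took 0.345% of the Basal pool and 0.687% of the Squam pool in control. Rpl28, Rpl41 and Rpl10 also had larger shares in Squam, with log2 ratios of 0.82, 0.83 and 0.81 in control and 0.70, 0.66 and 0.89 in dry eye.

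At the other end stood Rpl12, which binds beside Rplp0 at the base of the stalk, with 3472 CPM in Basal and 265 CPM in Squam of control, and 3423 and 367 CPM in dry eye. Its share of the pool was 1.02 and 0.412% in control, a log2 ratio of -1.31, and in dry eye the log2 ratio was -0.97. Rpl36a had -1.19 and -0.95, and Rps19, a small subunit protein mutated in Diamond-Blackfan anaemia, had -1.08 and -0.82. Rplp0 and Rpl12, which lie side by side in the ribosome, were the highest and the lowest of the 80 by this ratio in both libraries.

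Most members lay on the same side in both libraries. Of the 80 members, 29 had a larger share of the pool in Squam in both libraries, 38 a smaller one in both, 5 pointed in opposite directions and 8 had an interval that held 1 in at least 1 library. The correlation between the libraries was 0.94 over the 80 members, given as a description since both came from the same mice and one annotation. Least variable across classes of control were Rps13, Rpl11 and Rpl13a, whose highest share of the pool was 1.04, 1.07 and 1.07 times the lowest. In dry eye these 3 had 1.12, 1.16 and 1.12, and Rps12 had the lowest value, 1.07, against 1.37 in control. The median over members was 1.31 in control. The highest value was 2.58 in control, for Rpl12 (1.96 in dry eye), and 2.43 in dry eye, for Rps2 (1.66 in control).

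**Figure D4:**
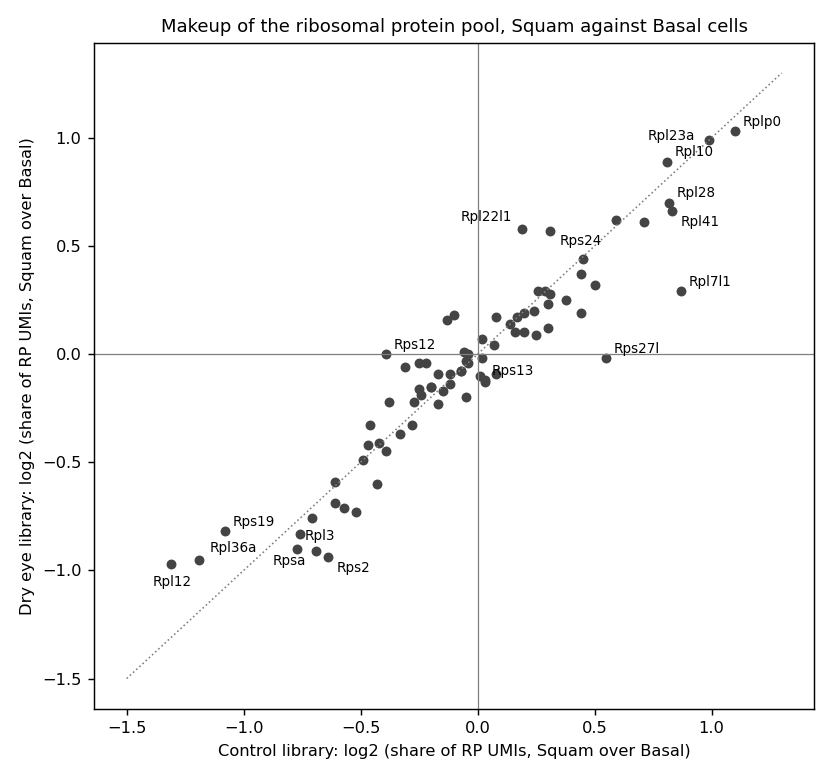
Log2 ratio of each member's share of the ribosomal protein pool, Squam over Basal, in control (horizontal) and dry eye (vertical), 1 point per member; the dotted line marks equal values. Rplp0 and Rpl23a lie at the upper right, Rpl12, Rpl36a and Rps19 at the lower left, and Rps27l and Rpl7l1 below the line.

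The other classes differed less in makeup. LSC against Basal had a spread (SD over the 80 members) of 0.10 log2 units in control and 0.11 in dry eye, beside 0.48 and 0.45 for Squam against Basal. Rps19 had 1.2 times the Basal share in LSC of both libraries, Rplp1 1.26 and 1.15 times, and Rpl17 0.838 and 0.868 times. TAC2 against Basal had a spread of 0.07 in both, with Rpl7l1 at 1.21 and 1.22 times and Rpl22l1 at 1.13 and 1.12 times the Basal share. In Wing, Rpl23a took 1.38 and 1.40 times its Basal share, Rplp0 1.32 and 1.3 times, and Rpl12 0.740 and 0.753 times, so these 3 lay on the same side as in Squam.

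Some ribosomal proteins have a paralog that can take their place in the ribosome. Rpl22l1, the paralog of Rpl22, made up 33.5% of the UMIs of its pair in control (exact 95% interval 33.4 to 33.6) and 34.3% in dry eye (34.2 to 34.5). Among the 8 classes it was lowest in Basal in control, at 27.7% (28.4% in dry eye). It took 36.1 and 39.1% in Wing, 38.1 and 45.5% in Squam, and 40.7 and 42.2% in Conj. In LSC it was 28.4 and 26.2%. In TAC1* it was 31% in control (29.8 to 32.2) and 22% in dry eye (21.4 to 22.5), and in TAC2* 32.4% (29 to 35.9, 21 cells) and 22.9%.

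Rps27l, the paralog of Rps27 and a known target of p53, was the minor partner, with 13.5% of its pair in control and 13.1% in dry eye. In control it ran from 11% in TAC1 to 16.4% in Conj among the 8 classes. In dry eye TAC1* was the highest, at 16.8% (16.4 to 17.3) against 11.4% in control (10.7 to 12.2), and TAC2* had 15.5 and in control 11.7%. In Squam it was 15.2% in control and 11% in dry eye (10.7 to 11.3), so the order of the libraries was opposite to that of Rpl22l1 in Squam and in TAC1*.

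Rpl36al, a paralog of Rpl36a outside the naming rule, made up 36.7% of its pair in control and 36.8% in dry eye. Its percentage was higher in Squam, at 67.4 and 63.6%, than in Basal, at 29.1 and 29.2%. The paralogs Rpl7l1 and Rpl39l were rare. Rpl7l1, which resembles Rpl7, made up 2.41% of its pair in control and 2.64% in dry eye. These counts do not show whether Rpl7l1 takes the place of Rpl7 in ribosomes. Rpl39l, known from the testis, had 197 UMIs in control and 236 in dry eye, or 0.0215% and 0.0211% of its pair with Rpl39, and did not pass the filter. Rpl3l, Rpl10l and Rps4l were not analysed here. Reads of near-identical copies and pseudogenes can be split or lost in counting, and the values of Rpl39l, at this level, cannot be told from such reads.

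**Figure D5:**
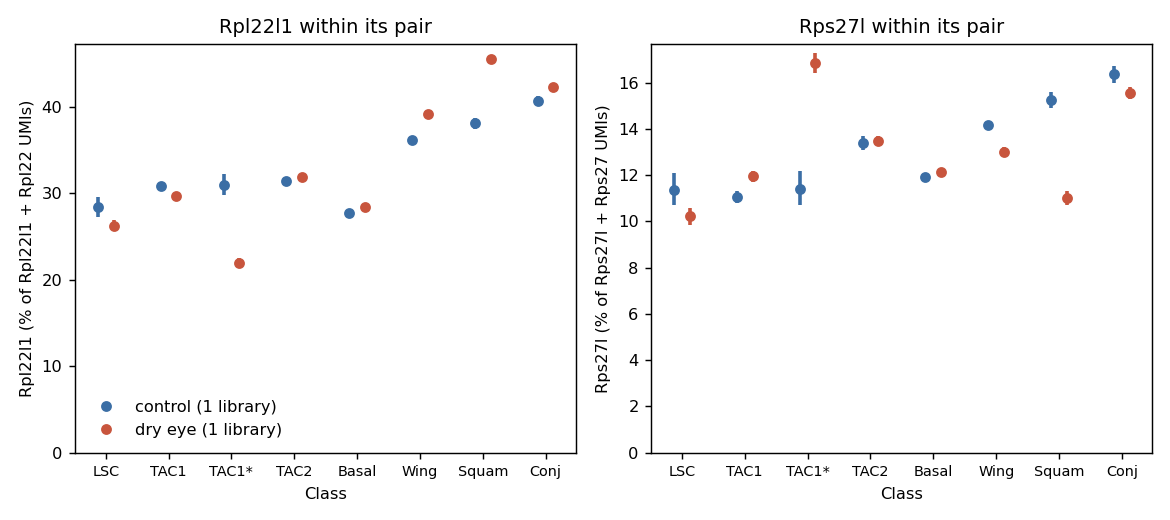
Rpl22l1 as a percentage of Rpl22l1 and Rpl22 UMIs (left) and Rps27l as a percentage of Rps27l and Rps27 UMIs (right) in each class, with exact 95% counting intervals. In Squam the dry eye library is higher for Rpl22l1 (45.5 against 38.1%) and lower for Rps27l (11 against 15.2%), and in TAC1* the reverse holds.

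Across 19 sums of cells by class and library, with at least 100 cells each, the genes most like Rpl22l1 in log2 CPM were Rps24 (Pearson r 0.965), Rpl39 (0.961) and Rps4x (0.958), all members, while its partner Rpl22 had 0.919. Those most like Rps27l were not members: Nifk, a nucleolar protein (0.997), Dars, a tRNA synthetase (0.995), and Ddx10, a helicase of ribosome assembly (0.995), while Rps27 had 0.948. The sums share 2 libraries and the same steep change across layers, so these values only describe likeness.

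Control cells of the starred classes numbered from 133 in TAC1* (473 in dry eye) to 0 in Squam* (217 in dry eye). These classes were set against the class of the same name within the dry eye library, unless control is named. TAC1* had 0.879 times the ribosomal protein share of TAC1, TAC2* 0.98 times that of TAC2, LSC* 0.631 times that of LSC (85 and 592 cells) and Squam* 1.4 times that of Squam (217 and 2973 cells). Wing* and Wing were level at 20.7%. In control the ratios were 0.935 for TAC1*, 0.992 for TAC2* (21 cells), 0.842 for LSC* (6 cells) and 0.263 for Wing* (12 cells). Rps2 took a larger share of the pool in each starred class than in its namesake: 1.23 times in TAC1*, 1.16 in TAC2*, 1.3 in Wing*, 1.35 in LSC* and 1.43 in Squam*. Rpl22l1 took a smaller share in TAC1* (0.729 times, from 1238 CPM in TAC1 to 794 CPM) and TAC2* (0.701 times, from 1181 to 812 CPM), and Rps27l a larger one (1.3 and 1.13 times). In Squam*, Rps19 stood at 1007 CPM against 487 CPM in Squam, and Rpl12 at 708 against 367 CPM. Some starred classes differed from their namesakes in markers too. In dry eye, mitosis markers summed to 1101 CPM in TAC2* and 3672 CPM in TAC2, and limbal markers to 2278 CPM in LSC* and 10877 CPM in LSC. S phase markers were close, at 615 CPM in TAC1* and 597 CPM in TAC1. The part of such differences in the values above was not tested. A class drawn mostly from 1 library cannot be told apart from that library.

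Genes that act with the ribosome were counted in lists by the same rule over all cells. Of 65 ribosome biogenesis factors, 27 passed the filter. Of these, 8 were higher in dry eye and 0 lower, with a median log2 ratio of 0.18. Over all genes 6.89% were higher and 9.82% lower. The filter asked for 20 CPM in either library, so a gene near that level can enter only through the library where it is higher. Summed S phase markers went from 92.4 to 125 CPM and mitosis markers from 431 to 582 CPM over the same cells, and the classes changed in number, with 4230 and 2857 Basal cells and 21 and 572 TAC2* cells. Their part in the counts of these lists was not tested. Among the biogenesis factors Npm1, the nucleolar chaperone nucleophosmin, went from 255 to 372 CPM (ratio 1.46). Gnl3, nucleostemin, went from 14.2 to 20.8 CPM (1.47) and passed the filter only through dry eye. The lowest values of that list were those of Tsr3 (0.878) and Polr1a (0.855, 8.93 and 7.63 CPM, below the filter). Of 33 initiation factors 2 were higher, Eif2s2 (1.27) and Eif1ax (1.28), and 1 lower, Eif4a2, from 67.9 to 47.6 CPM (0.702). Of 10 elongation factors 0 were higher and 1 lower, Eef2k, the kinase that inhibits elongation factor 2 (0.767). Eif5a had a ratio of 1.18 and Eef1d one of 0.967.

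The counts of the next lists also stand beside 6.89% of all genes higher and 9.82% lower. Other mRNAs known to begin with a TOP tract gave 2 higher and 0 lower of 21. Nap1l1, a histone chaperone, was at 1.48 and Pfdn5, a prefoldin subunit, at 0.821. The median log2 ratio of these TOP mRNAs was 0.02, beside 0.04 for the ribosomal protein genes. Of 16 regulators of mTORC1 and Myc activity 2 were higher and 3 lower. Pdcd4, an inhibitor of the helicase Eif4a1, went from 335 to 237 CPM (0.71). Mycl went from 21.9 to 16.2 CPM (0.74) and passed the filter only through control. Myc, a transcription factor that acts on ribosome genes among others, had 5.67 and 9.7 CPM (ratio 1.71, 1.59 to 1.84), a level below the filter. Of 7 genes of the integrated stress response and ribosome quality control 0 were called. Asns, asparagine synthetase, was below the filter at 5.65 and 16.1 CPM (ratio 2.85). Of 61 mitochondrial ribosomal proteins 1 was higher, Mrpl33 (1.34), and 0 were lower, with a median of -0.02.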

How the data were processed

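The authors deposited raw counts of UMIs for 17891 genes in 33885 cells, and a table with the library and class of each cell. Both libraries were 3′-end droplet libraries of polyA RNA, per the labels' protocols. Per the submitters' processing notes, which give no roles, Cell Ranger 6.0.1, Seurat 4 and mm10 were used. Filters and the way cells were classed are not given in the sources used here. Counts were summed per library, or per class and library, with Python 3.11.15, SciPy 1.17.1 and pandas 2.3.3, and divided by the summed total to give CPM. One UMI stands for 1 molecule, so levels were not divided by length. Intervals are Clopper-Pearson at 95% and cover counting error only, and 1 count was 0.00522 CPM in control and 0.00483 CPM in dry eye. No test was possible, and no p-value was computed. Free RNA was not removed and no doublet caller was run. Within classes, genes needed 50 UMIs and 20 CPM. The calculations were tested on simulated counts.

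The members and the 8 lists were chosen with earlier results of these data known. Named were the 6 highest and 6 lowest ratios, the 5 members with most UMIs, the 4 most and 3 least variable over classes, paralogs with their partners and members of known role, the ubiquitin fusions, from each list the 2 highest and 2 lowest ratios (minimum 100 UMIs), and the 3 genes most like Rpl22l1 and Rps27l. Some genes that this rule names are not reported here. Members called within a class and the other extremes were named after seeing their values. Promoters were read from RefSeq on GRCm38.p6, coding lengths and gene positions from GENCODE on the same build. Sequences of proteins were not used here. Alternatives changed the cells used, the denominator, the weighting, the scaling (TMM from edgeR 4.0.16), the filter and the fold.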

Additional observations from a re-analysis of the deposited data

Results flagged for a closer look

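The ratios of 3 members pointed in opposite directions, past the 25% threshold, in 2 classes. How many of all genes did so was not counted. In TAC1* 22.2% of all genes were called higher and 19.8% lower, and in Squam 8.03% and 23.5%. Rpl22l1 had a ratio of dry eye over control of 1.51 in Squam and 0.652 in TAC1*. Rps27l had 1.26 in TAC1* and 0.771 in Squam. Rps24 had 1.26 in Squam and 0.786 in TAC1*. The difference between the classes was not tested, since each class has 1 library per group.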

How the results depend on the processing

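No paired analysis was possible because each group is 1 pooled library. The ribosomal protein share of UMIs in control and dry eye was 20.5 and 21% (ratio 1.02) without the starred classes, 21.2% in dry eye (ratio 1.03) with its classes weighted to the control shares of cells, 21 and 21.7% without mitochondrial UMIs, 29.9 and 30.7% (ratio 1.03) without the 50 most abundant other genes, 22.2 and 22.4% (ratio 1.01) as a mean over cells, 21.1 and 21.5% (ratio 1.02) without the 5% of cells with most UMIs, and 20.6 and 21.3% with pseudogene rows added. Among cells with 5000 to 15000 UMIs, a setting chosen after seeing the data, it was 22.3 and 22.8% (ratio 1.02). The ratio over all cells stayed above 1 in each of these. The pseudogene setting added only rows with -ps in the name, so copies under other names were not added.

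The number of members called at least 25% higher was 0 without the starred classes, with weighted classes and as a mean over cells, 3 with TMM factors, 2 with the median of gene ratios, 11 at 1.1-fold and 0 at 1.5-fold. The median log2 ratio of members was 0.10 with TMM factors and 0.09 with the median of gene ratios, which shift every log2 ratio by 0.062 and 0.054. Classes with a higher share in dry eye numbered 3 as a mean over cells, where Conj was 0.996 and Wing 0.988, and 2 with 5000 to 15000 UMIs, where Conj was 0.961, Wing 0.986 and Basal 0.997. Without the cells with most UMIs Wing was 0.981. The causes were not tested. Counting error is widest for rare members, such as Rpl39l with 197 and 236 UMIs.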

Other observations

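Small classes gave values that rest on few cells. Immune cells, 20 in control and 31 in dry eye, had a ribosomal protein share of 28% (27.52 to 28.46) and 28.3% (27.93 to 28.72), at a median of 1351 and 918 UMIs per cell. The mean over these cells was 25.8% and 30.9%, and their median 25.4% and 30.6%. The 12 control cells named Wing* had a share of 5.33% and a median over cells of 3.79%. This median was below that of control Squam cells, 5.98%, and below their 25th percentile, 4.46%. The 446 dry eye cells named Wing* had a share of 20.7%.

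Rows next to the ribosomal protein genes were close to level. Rpl36al stood at 690 and 787 CPM (ratio 1.14), as Rpl36a itself had 1.13. Rack1, a small subunit scaffold without a ribosomal protein name, had a ratio of 1.11, Eef1a1 1.03 and Tpt1 0.987. The row Gm10076, which no setting added to a member, had 302462 UMIs in control and 344792 in dry eye (ratio 1.05).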
